A study of Mus musculus with 8 samples.

Results

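The genes described here are 9 loci that the mouse uses outside the cerebral cortex, namely the transcription factor genes Six2, Pitx1, Pax9, Foxf1, Foxd2, Nkx2-4, Alx1 and Alx4 and the long noncoding RNA gene Foxd2os, among 23420 genes listed at E11.5 and 78298 at E12.5. They were chosen as craniofacial and non-cortical regulators with the E11.5 counts already known, so their E11.5 difference between genotypes is given as a description without a test. RNA was sequenced from 8 dissected cortices of mouse embryos on a C57BL/6N background, with 2 Mboat7+/- and 2 Mboat7-/- cortices at E11.5 and the same at E12.5. The deletion was carried by every cell of the animal, the controls lacked one copy of Mboat7, and embryos of either sex were used. Mboat7 encodes the acyltransferase that places arachidonic acid on phosphatidylinositol, and the comparison asks which transcripts differ in the cortex when both copies are gone. The E11.5 and E12.5 libraries came from different sequencing providers and instruments and were counted against different gene lists, so stage and provider cannot be told apart.

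Most of the 9 genes are known for the face, the skull and the mouth. Neural crest cells leave the dorsal neural tube, fill the frontonasal process and the pharyngeal arches and form most of the cartilage and bone of the face, and the mesenchyme that overlies the forebrain comes from the same source. Alx1 and Alx4 are homeobox factors of frontonasal mesenchyme, Six2 is a homeobox factor of facial mesenchyme and of kidney progenitors, Foxd2 is a forkhead factor of facial and paraxial mesenchyme with Foxd2os beside it on the other strand, and Foxf1 is a forkhead factor of mesenchyme that responds to hedgehog signals. Pitx1 marks oral ectoderm, the pituitary primordium and the first pharyngeal arch, and Pax9 marks pharyngeal endoderm and tooth and palate mesenchyme. Nkx2-4 is a homeobox gene of the hypothalamus and the close relative of Nkx2-1. None of them is a gene of the cortical wall itself.

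Start regions from RefSeq on GRCm38.p6, covering 250 bases before to 50 after the start, were matched for 4 of the 9 genes, Nkx2-4, Foxd2, Pax9 and Six2. They are shown because these 4 loci were all higher in the Mboat7-/- cortices at E11.5, and the CG dinucleotides, in capitals, show how far their start regions resemble each other. Each is written 5′ to 3′ along the strand of its gene. Nkx2-4 lies at chr2:147085296-147085595 on the minus strand, Foxd2 at chr4:114908849-114909148 on the minus strand, Pax9 at chr12:56695221-56695520 on the plus strand and Six2 at chr17:85688205-85688504 on the minus strand.
Nkx2-4: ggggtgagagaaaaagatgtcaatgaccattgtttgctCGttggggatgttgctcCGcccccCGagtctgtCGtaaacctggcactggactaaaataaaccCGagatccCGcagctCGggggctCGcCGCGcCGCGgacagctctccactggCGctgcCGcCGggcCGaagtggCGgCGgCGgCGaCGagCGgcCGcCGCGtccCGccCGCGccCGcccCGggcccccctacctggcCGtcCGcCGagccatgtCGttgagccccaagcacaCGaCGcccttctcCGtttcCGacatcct
Foxd2: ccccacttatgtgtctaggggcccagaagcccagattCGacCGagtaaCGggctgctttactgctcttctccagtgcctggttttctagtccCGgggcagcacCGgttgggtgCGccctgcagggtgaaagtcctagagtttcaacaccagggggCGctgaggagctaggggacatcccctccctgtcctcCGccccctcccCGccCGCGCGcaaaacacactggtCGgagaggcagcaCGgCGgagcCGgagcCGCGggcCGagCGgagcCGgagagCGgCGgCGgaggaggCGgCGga
Pax9: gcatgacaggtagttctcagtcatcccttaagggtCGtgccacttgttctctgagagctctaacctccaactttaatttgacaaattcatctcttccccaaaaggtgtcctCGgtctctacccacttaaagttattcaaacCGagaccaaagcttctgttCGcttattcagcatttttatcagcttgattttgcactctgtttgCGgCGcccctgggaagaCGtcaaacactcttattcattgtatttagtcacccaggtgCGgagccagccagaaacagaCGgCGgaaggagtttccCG
Six2: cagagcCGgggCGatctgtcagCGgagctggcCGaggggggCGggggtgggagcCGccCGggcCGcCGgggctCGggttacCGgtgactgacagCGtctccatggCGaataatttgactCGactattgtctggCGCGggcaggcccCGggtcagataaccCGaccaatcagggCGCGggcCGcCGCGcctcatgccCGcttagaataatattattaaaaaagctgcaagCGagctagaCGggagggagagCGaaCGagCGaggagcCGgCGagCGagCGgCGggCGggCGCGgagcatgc

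The Nkx2-4, Six2 and Foxd2 start regions held 38, 37 and 26 CG dinucleotides, and 95.0%, 94.4% and 83.1% of the 32851 mouse start regions of the same length held fewer. The Pax9 window had 11 CG dinucleotides and a GC content of 47.0%, against a median of 7 and 52.7% over all start regions. This window lies downstream of the Pax9 start site of GENCODE vM21 at position 56691767 of chromosome 12. The GC content of the other 3 was 68.3% for Nkx2-4, 67.7% for Foxd2 and 67.3% for Six2. On either strand, the homeodomain core TAATTA, the forkhead core GTAAACA and the TATA sequence TATAAA had no match in any of the 4 windows, while 5.29%, 3.65% and 13.6% of all start regions held them. CCAAT, found in 37.4% of all start regions, had 1 match, in the Six2 window.

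The E11.5 libraries held 21843330 to 28189771 counts each and the E12.5 libraries 20799311 to 23330432, so that 3 counts, the limit that a count of 0 allows, came to between 0.106 and 0.144 CPM (counts per 1000000 counts of the library). Intervals and this limit cover counting error only. Mboat7 itself was not lower under the Mboat7-/- label at E11.5, at 700 and 876 counts for the Mboat7+/- label and 1103 and 860 counts for the Mboat7-/- label, or 32.3 and 33.1 CPM against 39.0 and 34.8 CPM (log2 fold change 0.17, SE 0.11, adjusted p = 0.527, edgeR quasi-likelihood test). At E12.5 Mboat7 had 739 and 782 counts against 730 and 729, or 35.5 and 36.2 CPM against 31.7 and 32.2 CPM (log2 fold change -0.17, SE 0.10, adjusted p = 0.958). The counts therefore do not show the loss of the gene at either stage, and every direction below is between cortices as labelled. From lipid measurements, not from these counts, the paper reports less phosphatidylinositol with arachidonic acid in Mboat7-/- cortices at both stages. All 12 cortical transcription factors examined, among them Emx1 and Pax6, were detected in every cortex. They lay at 1.80 to 475 CPM at E11.5 and 51.4 to 553 CPM at E12.5. Their detection does not show that the dissections held cortex alone. Nkx2-1, of the hypothalamic list and named after its values were seen, was at 102.5 to 149.9 CPM at E11.5. Emx1 was at 35.8 to 65.7 CPM there. Xist was at 17875 counts in Mboat7+/- replicate 1 at E11.5 and at most 2 in the other 7 cortices, so sex was not balanced between the E11.5 genotypes. Mboat7-/- replicate 1 at E11.5 was the lowest of the 4 cortices for all 12 cortical transcription factors. It was the highest of the 4 for 29.6% of the 14935 genes tested, a share not given here for the other cortices. Mboat7-/- replicate 1 is therefore given apart from Mboat7-/- replicate 2 throughout.

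At E11.5 all 9 genes were higher in both Mboat7-/- cortices than in either Mboat7+/- cortex, a pattern that the choice of the genes used and that 23.1% of all genes tested also showed. The head mesenchyme genes were already well expressed in the heterozygous cortices and lay 0.43 to 0.90 above them on the log2 scale in the Mboat7-/- cortices, apart from Foxd2os and Foxf1. Pitx1, Pax9 and Foxf1 were close to absent from the heterozygous cortices. Counts are given below in the order of replicates 1 and 2, Mboat7+/- first and Mboat7-/- after "against". In bulk tissue, fewer cells of a type and less RNA per cell cannot be told apart.

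Six2 was the most abundant of the 9. Its counts were 2235 and 2468 with the Mboat7+/- label, and 4458 and 3024 in Mboat7-/- replicates 1 and 2. Both Mboat7-/- values lay above both heterozygous values, and replicate 1 was the higher. As CPM this was 98.2 ± 7.06 against 140.1 ± 24.9 (SD, n = 2 each), a log2 fold change of 0.51 (SE 0.117). Alx4 had 2029 and 2054 counts against 3622 and 2525, with a log2 fold change of 0.43 (SE 0.124). Alx1, required for frontonasal development, had 499 and 684 counts against 1027 and 787, with a log2 fold change of 0.48 (SE 0.129). These 3 homeobox genes thus differed by similar amounts, and each was 1.14 to 1.29 times higher in Mboat7-/- replicate 1 than in replicate 2. Without Mboat7-/- replicate 1 the log2 fold changes were 0.32 for Six2, 0.26 for Alx4 and 0.38 for Alx1.

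The Foxd2 locus differed more. Foxd2 counts were 294 and 273 in heterozygous cortices against 783 and 413, with a log2 fold change of 0.90 (SE 0.248). Foxd2os, listed at E11.5 under the name 9130206I24Rik, had 151 and 190 counts against 724 and 353, with a log2 fold change of 1.50 (SE 0.266). Without Mboat7-/- replicate 1 these were 0.49 for Foxd2 and 1.01 for Foxd2os. The start sites of the pair lie 384 bases apart on opposite strands (GENCODE vM21, GRCm38). The ratio of Foxd2os to Foxd2 counts was 0.514 and 0.696 with one copy of Mboat7 and 0.925 and 0.855 with the Mboat7-/- label, so the noncoding partner differed by more than the coding gene. The library kit keeps strand, but the strand setting of the counting was not given in the sources used here, and reads of overlapping transcripts of the 2 genes may be shared.

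Foxf1 showed the widest spread among the mesenchymal genes. It was at 8 and 0 counts in heterozygous cortices against 138 and 46, or 0.185 ± 0.261 against 3.37 ± 2.13 CPM (SD, n = 2 each). Only the Mboat7-/- cortices held it above 10 counts. With so few heterozygous reads, the fitted log2 fold change of 4.27 (SE 0.947) depends on the prior count of the fit, and was 3.18 without Mboat7+/- replicate 2 and 9.49 without Mboat7+/- replicate 1.

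Pitx1 and Pax9, the 2 genes of the oral region, were close to absent from the heterozygous cortices. Pitx1 had 0 and 4 counts in heterozygous cortices against 262 and 36. Mboat7-/- replicate 1 alone thus held most of the Pitx1 reads, at 6.36 times the CPM of replicate 2, and the fitted log2 fold change was 5.95 (SE 1.14). It depends on the prior count, and was 4.08 without Mboat7-/- replicate 1 and 10.07 without Mboat7+/- replicate 2. Pax9 was at 0 counts in both heterozygous cortices, against 34 and 31. At 1.20 and 1.26 CPM it was the gene on which the 2 Mboat7-/- cortices were most alike and the exception to the order of these cortices, since replicate 1 was the highest cortex for the other 8 genes. Against the limit of 3 counts per library, Pax9 was at least 9.76-fold higher in the Mboat7-/- cortices.

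Nkx2-4 had 20 counts in each Mboat7+/- cortex, against 153 and 64. This came to 0.840 ± 0.119 against 4.0 ± 2.0 CPM (SD, n = 2 each), a log2 fold change of 2.26 (SE 0.461). The hypothalamic gene was thus present at a low level in every E11.5 cortex, and both Mboat7-/- cortices lay above it.

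**Figure D1:**
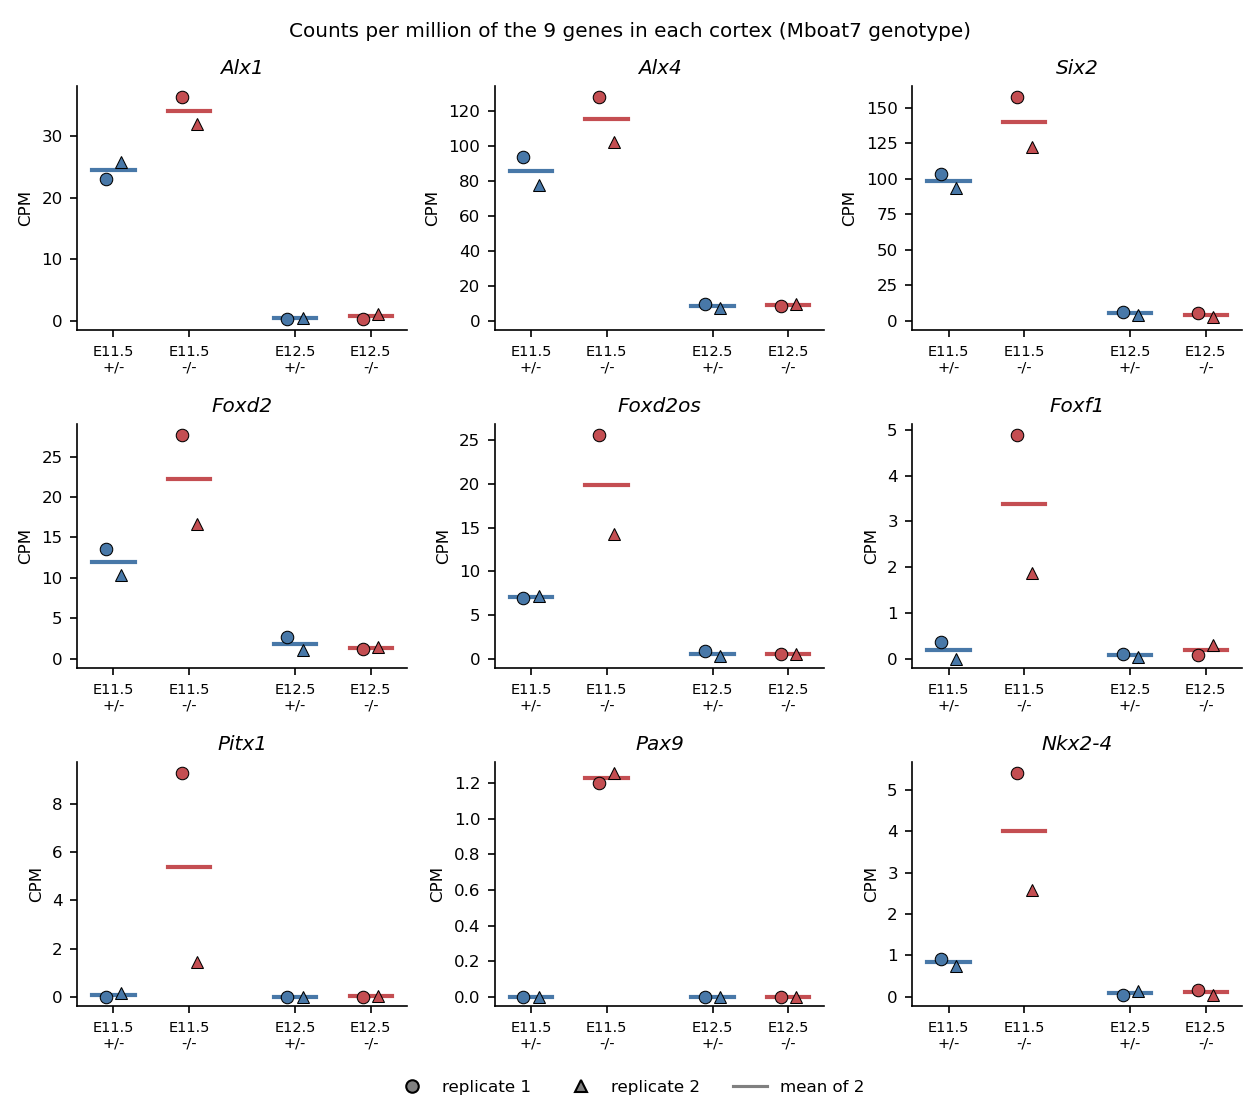
CPM of each of the 9 genes in every cortex, 1 panel a gene with its own linear axis, with blue for Mboat7+/-, red for Mboat7-/-, circles for replicate 1, triangles for replicate 2 and lines at the mean of 2 cortices. At E11.5 the Mboat7-/- cortices lie above the Mboat7+/- cortices for all 9 genes, with replicate 1 the highest for 8 of them, and at E12.5 the genotypes overlap for every gene.

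Summed over the 9 genes, the E11.5 cortices held 5236 and 5693 counts with the Mboat7+/- label and 11201 and 7279 with the Mboat7-/- label. As CPM of each library's own total count these were 239.7 (exact 95% binomial interval 233.3 to 246.3), 214.0 (208.5 to 219.7), 397.3 (390.0 to 404.8) and 297.2 (290.4 to 304.1). The Mboat7-/- cortices differed from each other by more than the heterozygous cortices did. After TMM scaling the sum was 228.4 ± 18.9 CPM against 345.4 ± 71.8 CPM (SD, n = 2 each), a ratio of 1.51. The replicate number in the labels is also a batch number, though the labels do not say what a batch is, and the ratio was 1.64 within batch 1 and 1.37 within batch 2. Within batches the 3 homeobox genes of head mesenchyme kept ratios of 1.53 and 1.31 for Six2, 1.37 and 1.32 for Alx4 and 1.58 and 1.23 for Alx1. Foxd2 was 2.04 and 1.62 times higher, Foxd2os 3.67 and 1.99 times, and Nkx2-4 5.86 and 3.43 times. Batch 1 gave the larger ratio in each case, and Pitx1, Pax9 and Foxf1 gave no ratio in at least 1 batch because a heterozygous cortex was at 0.

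All 9 genes passed the count filter at E11.5, of which Pitx1, Pax9 and Foxf1 passed only through the Mboat7-/- cortices. None reached a false discovery rate (FDR) of 0.05 together with a log2 change of 1 in either direction, and neither did any other gene (0.0% of 14935 tested by edgeR, with 2054 at an unadjusted p under 0.05). A log2 fold change of at least 1 in the higher direction was seen for 5 of the 9 and for 1.45% of all genes tested, and the median over the 9 was 1.50 beside -0.006 over all genes tested. With the replicate number as a block, 30 genes (0.201%) passed both thresholds, among them Foxd2os, Foxf1, Nkx2-4, Pax9 and Pitx1. The same 5 passed without the count filter, where 41 genes (0.226%) did. DESeq2 called 12 genes (0.0803%), of which Foxd2os was 1. Leaving out Mboat7-/- replicate 2 gave 159 called genes (1.04%), with Foxd2 added to those 5, and leaving out Mboat7-/- replicate 1 gave 22 called genes (0.144%) and none of the 9. Since these genes were chosen on this contrast, nothing is read from these counts.

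At E12.5 the genotypes overlapped for all 9. Only Six2, Alx4, Foxd2 and Foxd2os passed the count filter. Six2 had 126 and 93 heterozygous counts against 128 and 65 (log2 fold change -0.30). Alx4 had 204 and 157 counts against 193 and 214 (0.06). Foxd2 had 57 and 22 counts against 28 and 34 (-0.46), and Foxd2os had 18 and 7 against 13 and 12 (-0.11). By CPM the highest cortex was Mboat7+/- replicate 1 for all 4 of them.

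The other 5 were scarce at E12.5. Alx1 had 6 and 10 heterozygous counts against 8 and 25. Foxf1 had 2 and 1 counts against 2 and 7, and Nkx2-4 had 1 and 3 against 4 and 1. Pitx1 was seen once, in Mboat7-/- replicate 2, and Pax9 not at all, so a difference between genotypes was not detectable for these 2 at this depth. Of the 3 genes called at this stage (0.0184% of 16326 tested), none was among the 9. The sum over the 9 genes was 19.9 and 13.6 CPM for the heterozygous cortices, against 16.3 and 15.9 CPM, a ratio of 0.962, with 0.821 within batch 1 and 1.17 within batch 2. The median log2 fold change over the 8 genes with a read was 0.14, and for Foxf1, Nkx2-4 and Pitx1 it rests on fitted values of single reads.

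The 5 genes with the most counts stood at far lower levels in the E12.5 data set. Averaged over the 4 cortices of each stage, Six2 was at 119 CPM at E11.5 and 4.70 CPM at E12.5, a ratio of 25.4. Alx4 was at 100.4 and 8.73 CPM, Alx1 at 29.3 and 0.551 CPM (a ratio of 53.1), Foxd2 at 17.1 and 1.62 CPM (10.6) and Foxd2os at 13.5 and 0.571 CPM (23.7). For 6 of the 9 genes every E12.5 cortex lay below every E11.5 cortex. These values stand side by side, without a test, because stage, provider and gene list changed together. The summed level of cortical transcription factors was 2184 to 2475 CPM at E12.5 and 1357 to 1953 CPM at E11.5, although Emx2 and Pax6 among them were lower in every E12.5 cortex than in any E11.5 cortex.

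Per kilobase of merged exon (GENCODE vM21), the order of the genes was led by Six2 and Alx4 at both stages. In the heterozygous E11.5 cortices Six2 stood at 46.4 ± 3.33 CPM per kilobase and Alx4 at 12.1 ± 1.62 (SD, n = 2). Foxd2 followed at 4.61 and Alx1 at 4.25 CPM per kilobase, and this neighbouring pair overlapped between cortices. Foxd2os stood at 2.20 and Nkx2-4 at 0.487 CPM per kilobase, with Foxf1, Pitx1 and Pax9 overlapping near 0. In the heterozygous E12.5 cortices Six2 stood at 2.45, Alx4 at 1.21, Foxd2 at 0.725 and Foxd2os at 0.184 CPM per kilobase, and Alx1 came after Foxd2os in that order at 0.0653.

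Other regulators of the same tissues, in lists that leave out the 9 genes, were read in the same way, and those said to lead a list had its smallest unadjusted p. Of 33 head mesenchyme and neural crest transcription factors tested at E11.5, 29 had a positive log2 fold change, beside 49.0% of all genes, and 19 lay higher in both Mboat7-/- cortices and 2 lower in both, beside 23.1% and 23.3% of all genes. Some of the 19, among them Nkx3-2 and Barx1, would not have passed the count filter on their Mboat7+/- counts. The filter thus partly fixed their direction, and nothing is read from these genes. The list median was 0.53, and it was the same with Nkx3-2, at 0 in both Mboat7+/- cortices, placed at its bound. Over the 28 genes of the list with at least 10 counts in every cortex the median was 0.49. An unadjusted p under 0.05 was reached by 17 of the 33, all in the higher direction, beside 13.8% of all genes in either direction, and none reached an FDR of 0.05. Barx1, a homeobox factor of first arch mesenchyme near the mouth, had 4 and 14 counts against 118 and 56 (log2 fold change 3.12). Prrx1, named after its values were seen because it is a broad marker of head mesenchyme, had 1592 and 2399 counts against 2329 and 2218 (0.07), so the list was not higher throughout. At E12.5, 23 of the list were tested, 4 lay higher in both Mboat7-/- cortices and 2 lower in both, beside 16.9% and 15.2% of all genes, with a median of -0.02, which ran from -0.07 to 0.21 when a cortex was left out.

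The oral ectoderm, pituitary and pharyngeal list separated the 2 Mboat7-/- cortices instead of the genotypes. Of 12 tested at E11.5, 2 lay higher in both Mboat7-/- cortices and none lower in both, beside 23.1% and 23.3% of all genes. The median of 0.10 was not stable, at 0.78 without the count filter and at 0.65 and 0.76 without Mboat7+/- replicate 1 or 2. Its summed level was 37.3 and 47.0 CPM in the Mboat7+/- cortices, 75.4 CPM in Mboat7-/- replicate 1 and 37.9 CPM in Mboat7-/- replicate 2. Tbx1, of pharyngeal arches, had 80 and 104 counts against 208 and 118 (0.67), and Foxa2, of endoderm and floor plate, had 9 and 67 against 18 and 10 (-1.50). Lhx3 and Lhx4 were named after their values were seen. Lhx3, a LIM homeobox gene of the pituitary primordium, had 0 and 2 counts against 90 and 0, and Lhx4 had 0 and 0 against 24 and 0. Reads of Lhx3 and Lhx4 thus came almost only from the cortex that also held most of the Pitx1 reads. At E12.5 only 4 of the list were tested, and Nkx2-3 had 149 and 205 against 163 and 139 (-0.33).

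Hypothalamic transcription factors other than Nkx2-4 lay in both directions at E11.5. Of 21 tested, 4 lay higher and 3 lower in both Mboat7-/- cortices, beside 23.1% and 23.3% of all genes, and 13 were highest in Mboat7-/- replicate 1, beside 29.6% of all genes. The median of 0.24 turned to -0.21 without Mboat7-/- replicate 1. Tbx2 had 329 and 301 counts against 683 and 429 (0.65), while Uncx had 876 and 1381 against 759 and 941 (-0.52). Rax and Six6, named after their values were seen, again divided the Mboat7-/- cortices, with 216 and 278 counts against 663 and 20 for Rax and 179 and 214 against 737 and 66 for Six6. At E12.5, 8 of 10 tested had a negative log2 fold change and 2 a positive one, beside 51.2% of all genes that were positive. An unadjusted p under 0.05 was reached by 3 of them, all in the lower direction, beside 4.11% of all genes, and 5 lay lower in both Mboat7-/- cortices, beside 15.2% of all genes, with a median of -0.36, or -1.18 without Mboat7-/- replicate 1. Otp, which specifies neuroendocrine neurons, had 368 and 182 counts against 116 and 82 (-1.59, adjusted p = 0.360), and Uncx had 203 and 239 against 162 and 127 (-0.72). The E12.5 counts of Nkx2-4 itself were too low to be placed beside them.

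**Figure D2:**
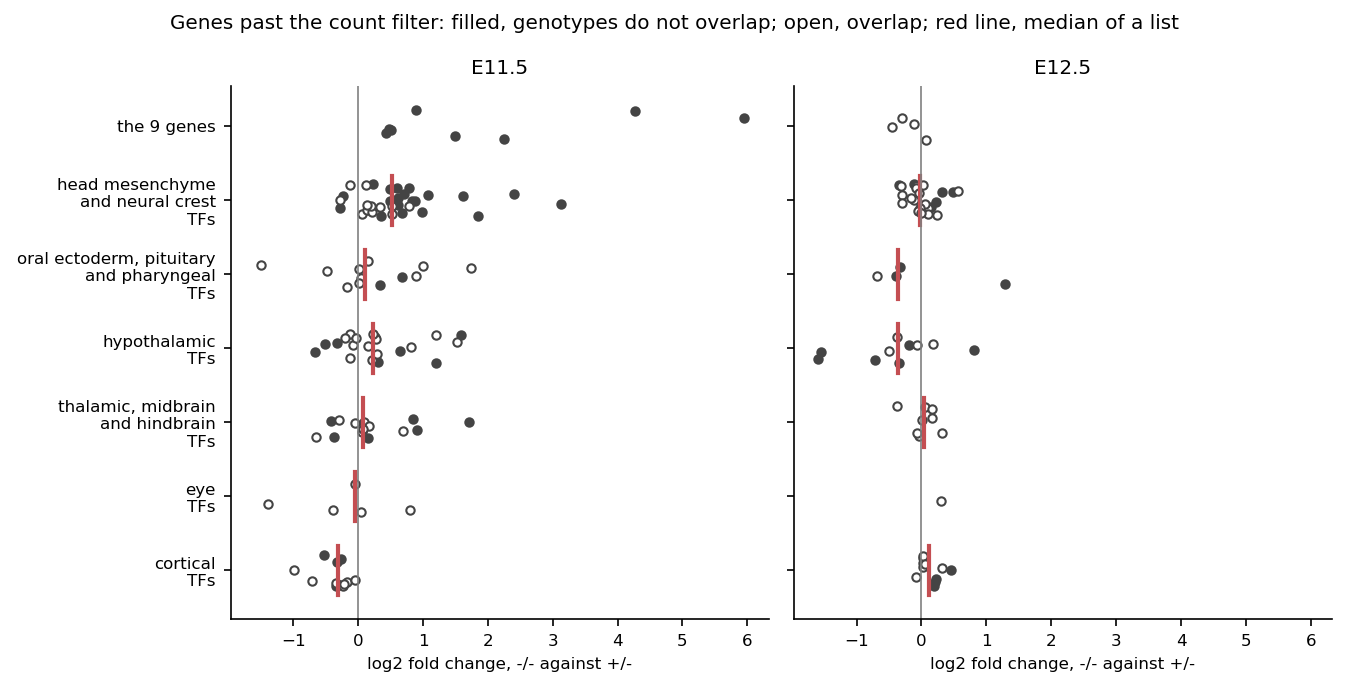
Log2 fold change of Mboat7-/- against Mboat7+/- for the 9 genes and for 6 lists of other transcription factors, 1 point a gene, filled where the genotypes do not overlap, with a red line at the median of each list of more than 2 genes drawn. Genes past the count filter with more than 3 counts in some cortex of each genotype are drawn. Pax9, at 0 in both Mboat7+/- cortices, is thus not drawn. At E11.5 the 8 of the 9 genes that are drawn, chosen on these values, and most head mesenchyme factors lie to the right of 0 and the 12 cortical factors to the left, and at E12.5 the 4 of the 9 genes that are drawn lie near 0.

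Pooled over the head mesenchyme, oral and hypothalamic lists, 25 of 66 genes tested at E11.5 (37.9%) lay higher in both Mboat7-/- cortices, beside 23.1% of all genes. Most of the 25 came from the head mesenchyme list, with 19 of 33, while the oral list gave 2 of 12 and the hypothalamic list 4 of 21. Some of the 19 would not have passed the count filter on their Mboat7+/- counts. Of the 66, 41 (62.1%) were highest in Mboat7-/- replicate 1, beside 29.6% of all genes. By list these were 25 of 33, 3 of 12 and 13 of 21. At E12.5 these shares were 6 of 37 (16.2%) and 5 of 37 (13.5%), beside 16.9% and 18.9% of all genes. The other 2 lists of non-cortical regulators were smaller. Of 14 thalamic, midbrain and hindbrain factors tested at E11.5, 4 lay higher and 2 lower in both Mboat7-/- cortices, beside 23.1% and 23.3% of all genes, with a median of 0.08 that ran from -0.03 to 0.26 when a cortex was left out. They were led by Gata2, with 200 and 201 counts against 538 and 277 (0.85), and by Gata3, with 78 and 135 against 232 and 202 (0.91). The 5 eye factors tested, led by Atoh7 and Vax2, had a median of -0.05, or -1.80 without Mboat7-/- replicate 1 and 0.65 without replicate 2, and summed to 14.1 and 20.2 CPM in the Mboat7+/- cortices, 27.8 CPM in Mboat7-/- replicate 1 and 2.63 CPM in replicate 2. At E12.5, 8 thalamic, midbrain and hindbrain factors, led by Irx5 and Tal2, had a median of 0.04 with none of them outside the range of the other genotype, and 1 eye factor, Mitf, was tested.

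The 12 cortical transcription factors lay on the lower side at E11.5. All had a negative log2 fold change, from -0.98 to -0.04, with a median of -0.31, or -0.13 without Mboat7-/- replicate 1, while 49.0% of all genes had a positive one. Of the 12, 5 lay lower in both Mboat7-/- cortices, beside 23.3% of all genes. Their summed level was 1738 and 1953 CPM in the Mboat7+/- cortices, 1357 CPM in Mboat7-/- replicate 1 and 1719 CPM in replicate 2, so the cortex with the highest sum of the 9 genes had the lowest sum of cortical factors. Emx1, of dorsal telencephalon, had 1233 and 1740 counts against 1012 and 1225 (-0.53), and Fezf2, of deep-layer neurons, had 1692 and 2194 against 1771 and 1623 (-0.33). At E12.5, 11 of the 12 had a positive log2 fold change, beside 51.2% of all genes, with a median of 0.11. Of the 12, 5 lay higher in both Mboat7-/- cortices and none lower in both, beside 16.9% and 15.2% of all genes. They were led by Neurod6 with 1988 and 1738 counts against 2306 and 3213 (0.46) and by Pax6 (0.22).

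The sums of several marker lists of other tissues that a dissection could carry over were also higher beside the 9 genes at E11.5. The part of these tissues in the difference was not tested. The counts of markers higher or lower in both Mboat7-/- cortices stand beside 23.1% and 23.3% of all genes. All 3 cartilage markers tested lay higher in both Mboat7-/- cortices, and the sum of the list was 411 and 429 CPM against 705.5 and 521 CPM. Col2a1 made up most of this sum at both stages, and at E11.5 it was at 390.8 and 406.1 CPM against 642.0 and 492.0 CPM. Acan had only 8 and 3 counts against 24 and 14, and Matn1 was at 0 in every cortex. Col9a1, of cartilage matrix, had 424 and 600 counts against 1772 and 694 (log2 fold change 1.10), and Col2a1 had a log2 fold change of 0.51. Of 8 mesenchyme and meninges markers, 6 lay higher in both, including Postn (1.13) and Col3a1 (0.36), and the sum was 1514 and 1465 CPM against 1696 and 1906 CPM, highest in replicate 2. Of 8 surface and oral epithelium markers, 3 lay higher in both, with a sum of 41.9 and 43.1 CPM against 61.7 and 49.0 CPM, led by Krt8 (0.72) and Epcam. Endothelial markers, led by Cdh5 and Kdr, lay higher in both for 4 of 6, with a sum of 241 and 228 CPM against 267 and 257 CPM. Skeletal muscle markers were scarce, at 2.08 and 3.89 CPM against 6.90 and 4.78 CPM in sum. The 2 tested went in opposite directions, with a log2 fold change of 0.33 for Myh3 and -0.57 for Acta1.

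Blood markers lay on the lower side at E11.5, with 5 of 6 lower in both Mboat7-/- cortices, beside 23.3% of all genes, and a sum of 6780 and 5119 CPM against 3536 and 3764 CPM, led by the embryonic globin genes Hbb-y (-0.75) and Hba-x (-0.79). The 5 pigment cell markers, led by Tyrp1 and Dct, split the Mboat7-/- cortices, at 31.4 and 45.8 CPM against 62.5 and 7.73 CPM in sum. Pituitary hormone and choroid plexus markers, led by Ttr and Folr1, summed to 13.9 and 20.7 CPM against 10.8 and 14.4 CPM, with 3 tested. At E12.5, where the 9 genes did not separate the genotypes, epithelium (5.39 to 6.56 CPM), pigment (10.4 to 13.9 CPM) and mesenchyme sums (511 to 692 CPM), the last led by Col1a2 and Pdgfra, overlapped between genotypes. The cartilage sum was 92.4 and 98.9 CPM against 85.8 and 91.2 CPM, and the skeletal muscle sum 1.20 and 0.973 CPM against 0.695 and 0.928 CPM, so both lay slightly lower in the Mboat7-/- cortices. The choroid plexus sum, at 101 to 260 CPM, was highest in Mboat7-/- replicate 2, and the endothelial sum, led by Kdr and Tek, was 210 and 201 CPM against 212 and 224 CPM. The blood sum was 5308 and 7714 CPM against 5402 and 3811 CPM at E12.5, led by Hbb-bh1 (-1.04) and Alas2 (-0.62). No gene of any list reached an FDR of 0.05 at either stage.

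**Figure D3:**
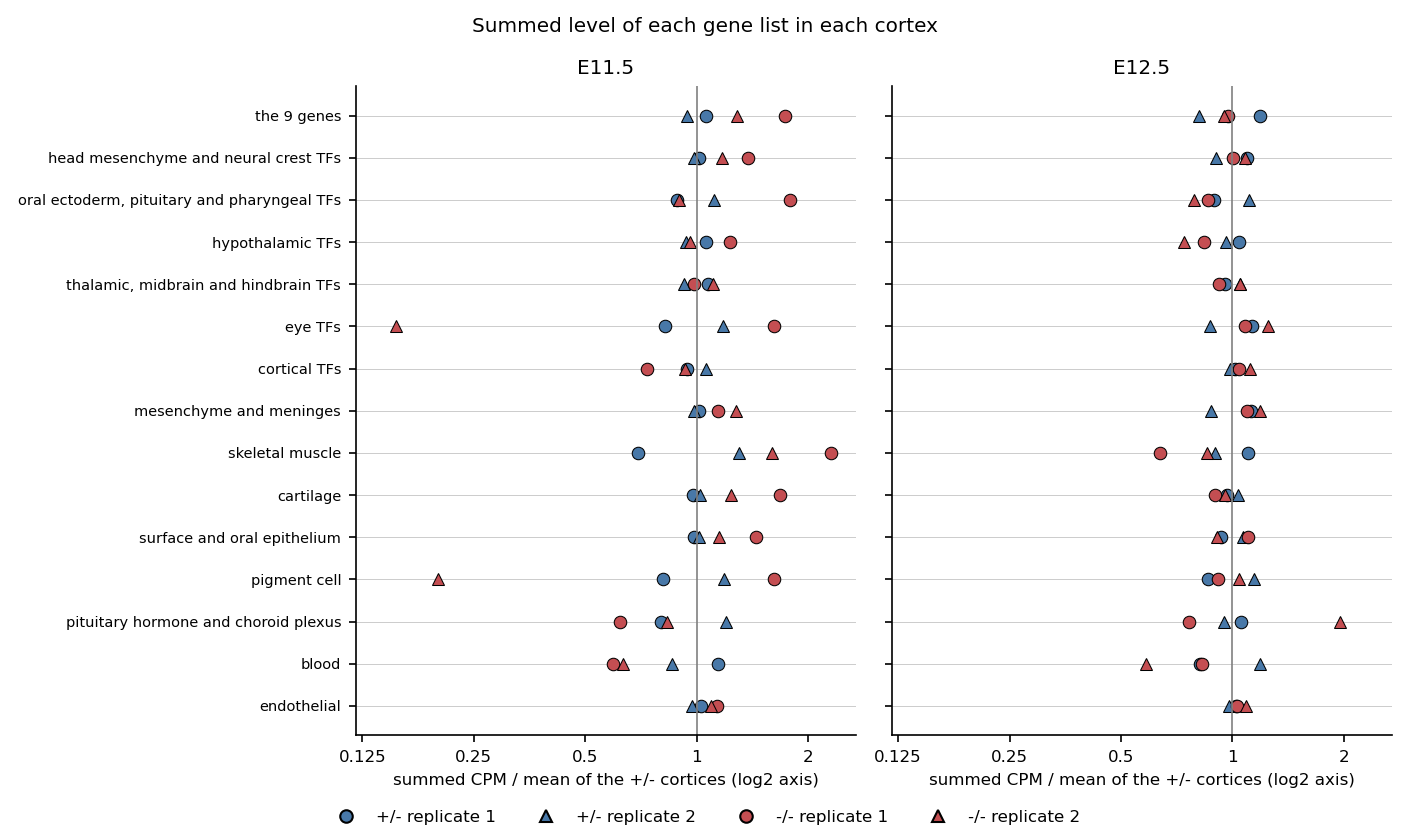
Summed CPM of the 9 genes and of each marker list in every cortex, relative to the mean of the 2 Mboat7+/- cortices of the same stage, on a log axis with 1 point a cortex. At E11.5 the 9 genes, head mesenchyme factors and cartilage markers lie above 1 in both Mboat7-/- cortices, oral, eye and pigment lists lie above 1 in Mboat7-/- replicate 1 and below 1 in replicate 2, and blood markers lie below 1 in both.

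Some neighbours on the chromosome that are not themselves of the 9 did not overlap between genotypes at E11.5. Fendrr, Ext2 and Xrn2 were higher in both Mboat7-/- cortices, and Mthfsd was lower in both. Beside them, 23.1% of all genes tested were higher in both and 23.3% lower in both. Fendrr, the noncoding gene that starts beside Foxf1, differed most, with 4 and 5 heterozygous counts against 70 and 24 (log2 fold change 3.18) and 0 in every E12.5 cortex. Six3, the neighbour of Six2 and a forebrain and eye factor, had 1604 and 1675 counts against 2325 and 1311 (-0.02). Mthfsd, on the other side of Foxf1, had 744 and 1015 counts against 943 and 793. In CPM this was 34.36 and 38.34 against 33.35 and 32.11 (-0.15). Slc25a21, which overlaps Pax9, had 41 and 50 counts against 54 and 41 (-0.08). Ext2, beside Alx4, had 71.5 and 67.2 CPM against 78.8 and 74.0 CPM (0.14). Xrn2, beside Nkx2-4, had 128.5 and 139.4 CPM against 140.0 and 144.3 CPM (0.08), and Lrriq1, beside Alx1, had 9 and 35 counts against 11 and 16 (-0.77). Foxe3, beside Foxd2os, had 16 and 72 counts against 71 and 17, and Catsper3, beside Pitx1, was seen only in Mboat7-/- replicate 1, with 8 counts. Foxf1 and Fendrr, like Foxd2 and Foxd2os, are a divergent coding and noncoding pair. Foxf1, Foxd2 and Foxd2os were chosen with their E11.5 counts known. Fendrr would not have passed the count filter on its Mboat7+/- counts. Nothing is therefore read from both partners of a pair being higher.

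Likeness was measured as Pearson's r between a gene's log2 CPM and the mean log2 CPM of the 9 genes over the 8 cortices, each centred on its stage mean, among 13580 genes with a mean count of at least 10 at both stages. The most alike genes were Flna (r = 0.996), an actin crosslinker, Emilin1 (0.993), of the elastic matrix, Fbxl18 (0.988), Tns3 (0.986), of focal adhesions, and Diaph1 (0.986), a formin that elongates actin filaments. Flna had 15243 and 17977 heterozygous counts against 26850 and 20032 at E11.5, and 8949, 9000, 9644 and 9703 at E12.5. The points share libraries and normalization, the pattern is set mostly by the 4 E11.5 cortices, Pitx1 and Pax9 had at most 1 read in each E12.5 cortex so that 7 of the 9 genes carry the E12.5 part of the mean, and 268 of the genes (1.97%) reached an r of at least 0.9.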

How the data were processed

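Cortices were dissected from Mboat7+/- and Mboat7-/- embryos, polyadenylated RNA was made into directional libraries, and each library is 1 GEO sample. The authors deposited raw read counts per gene, 1 table per stage. The submitters' processing notes name HISAT2, Subread and the builds mm10 and GRCm39 with no roles, and versions are not given in the sources used here. Columns were matched to samples by title. Gene names at E11.5 and Ensembl identifiers at E12.5 were matched to current symbols with mouse gene tables, which covered 99.591% and 81.448% of the genes with a count.

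The stages were fitted separately. In R 4.3.3, edgeR 4.0.16 was run with TMM scaling, the filterByExpr default (minimum count 10) and the quasi-likelihood F-test, with Benjamini-Hochberg adjustment over all genes tested. A gene was called at an FDR under 0.05 if its log2 change was also 1 or more in size. CPM used TMM-scaled totals. Fold changes of genes that did not pass the filter came from the same fit without the filter. The steps were tested on simulated data. Alternatives were RLE and upper-quartile scaling, dropping the filter, asking for 10 or more counts per cortex, DESeq2 1.42.0, the replicate number as a block, and each cortex left out. The labels use the replicate number as a batch number, which pairs the samples. Same-numbered deviations correlated at 0.05 (E11.5) and -0.12 (E12.5). Nothing says whether the cortices of a group came from separate litters, so p-values measure only the spread between these samples.

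The 9 genes and the 14 gene lists were chosen with earlier results of these data known. From each list, the 2 genes with the smallest unadjusted p per stage were named, along with the neighbours of the 9 genes and the 5 genes most like them, and other names are marked in the text. Some genes that this rule names are not reported here.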

Additional observations from a re-analysis of the deposited data

Results flagged for a closer look

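Of the named list genes tested at both stages, 5 had both Mboat7-/- cortices on one side of both Mboat7+/- cortices at E11.5 and on the other side at E12.5. The difference between stages was not tested, and stage and provider cannot be told apart. The share of all genes that turned in this way was not counted, so nothing is read from the number of such genes. Among genes of face and cartilage, Tbx1 had a log2 fold change of 0.67 at E11.5 and -0.40 at E12.5, Twist1 of 0.23 and -0.35, and Col2a1 of 0.51 and -0.12. Among cortical factors, Fezf2 had -0.33 and 0.19 and Pax6 had -0.26 and 0.22. Tbx15, named after its values were seen, also turned (-0.24 and 0.22). Barx1, Hmx3 and Myod1 had the same order of cortices but did not pass the count filter at E12.5, and Myod1 did not at E11.5. At E12.5 Myod1 had 1 and 1 counts against 0 and 0, and Barx1 1 and 4 against 0 and 1. These are too few to give a direction. None of the 9 genes showed such a turn, because their genotypes overlapped at E12.5.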

How the results depend on the processing

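RLE and upper-quartile scaling left all values close to those reported. With 0 genes called at E11.5, DESeq2 called 12, dropping the filter 41, asking for 10 or more counts per cortex 1 and the replicate block 30, and leaving out a cortex gave 1 to 159 (1 and 8 without Mboat7+/- replicates 1 and 2, 22 and 159 without Mboat7-/- replicates 1 and 2). With 3 called at E12.5, these were 5, 0, 0 and 14, and 25 to 94 without a cortex. The median log2 fold change of the 9 genes at E11.5 was 0.71 over the 6 with at least 10 counts in every cortex, and 1.01 to 1.85 without a cortex, lowest without Mboat7-/- replicate 1. At E12.5 it was -0.29 over 3 genes and -0.025 to 0.53 without a cortex. Their summed CPM ratio without a cortex was 1.29 to 1.73 at E11.5 and 0.809 to 1.19 at E12.5. The direction of the 9 genes at E12.5 was kept in 66 of 74 values. Their E11.5 direction is fixed by their choice and says nothing of stability. Among named list genes, Tyrp1 at E11.5 was -0.69 with the replicate block. Leaving out a cortex turned the direction of Tyrp1 (-8.50 to 1.15), Acta1 (-3.79 to 1.97), Foxa2 (-2.26 to 0.33), Vax2 (-1.72 to 1.66) and Dct (-1.19 to 0.038) at E11.5, and of Dct (-0.20 to 0.19), Epcam (-0.71 to 0.36), Folr1 (-0.15 to 0.47) and Ttr (-0.40 to 0.99) at E12.5. Where 1 cortex was left in a group, it was assumed to vary like the other genotype. The cause of these shifts was not tested. With 2 cortices per group and few reads, genes under 10 counts are limited by depth. The block changed no call of the 9 genes at E12.5.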
